A study of Mus musculus with 6 samples.

Results

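The transcripts described here encode the cyclins and cyclin-dependent kinases that drive a cell through G1, with inhibitors of those kinases, in Lewis cells treated with SD70 or with DMSO. Of 10 genes chosen by symbol (Ccnd1, Ccnd2, Ccnd3, Ccne1, Ccne2, Cdk4, Cdk6, Cdkn1b, Cdkn2a and Cdkn2b), 8 had values among the 16081 genes of the series, and all 8 passed the filter on low counts. Cdkn2a and Cdkn2b were not analysed here. RNA-seq was performed on 6 samples of a mouse lung carcinoma cell line, 3 kept for 24 hours with the vehicle DMSO and 3 kept for 24 hours with SD70, an inhibitor of the histone lysine demethylase KDM4C. No genotype differed between the groups, the cells were of 1 line, and the SD70 dose for these libraries is not given in the sources used here. The study's methods speak in general of experiments repeated independently, but nothing says that the samples of a group here were separate cultures, so p-values measure the spread between these samples, which may be technical.

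Cells decide in G1 whether to enter another division. D-type cyclins bind CDK4 or CDK6, and E-type cyclins bind CDK2. These kinases phosphorylate RB and its relatives, which releases E2F transcription factors to switch on genes for DNA synthesis. The INK4 inhibitors (Cdkn2a to Cdkn2d) block CDK4 and CDK6, and the CIP/KIP inhibitors (Cdkn1a, Cdkn1b and Cdkn1c) bind complexes of cyclins with CDKs. D-type cyclin transcripts are known to respond to growth factors, and losses of Cdkn2a are common in lung cancer.

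Totals ranged from 15276744 to 17060424 counts per sample. Kdm4c, the gene of the drug's target, had 0.02 as its log2 fold change (standard error, SE, 0.0638, edgeR adjusted p = 0.769), which says nothing of the activity of the enzyme. Among markers of the epithelium, from which a carcinoma derives, Krt8 had 3925 to 4150 counts with DMSO and 2382 to 2875 with SD70 (-0.55 on the log2 scale, edgeR adjusted p = 3.28e-11), and Krt18 fell as well (-1.22, edgeR adjusted p = 2.97e-07), while Epcam, Cdh1 and Krt19 had at most 1 count in any sample. The 5 epithelial markers summed to 148 to 155 FPKM with DMSO and 94.5 to 106 FPKM with SD70. Of the markers of lung alveolar cells with values, Sftpc had at most 1 count and Napsa between 65 and 85 counts. The 4 immune markers with values (Ptprc, Lyz2, Csf1r and Coro1a) summed to between 0.76 and 1.13 FPKM with DMSO and between 1.34 and 1.94 FPKM with SD70. This sum was mostly Lyz2, which had 11 to 15 counts with DMSO and 15 to 26 with SD70 (edgeR adjusted p = 0.0256). Ptprc, Csf1r and Coro1a had at most 4 counts in any sample. Among 4 fibroblast markers, Pdgfra fell (log2 fold change -1.0, edgeR adjusted p = 9.33e-17), as did Dcn (-0.19, edgeR adjusted p = 0.00719), Lum had a value of 0.46 (edgeR adjusted p = 0.0827), and Col1a1 had at most 6 counts. Their summed level was 52.0 to 55.0 FPKM with DMSO and 38.9 to 42.3 FPKM with SD70. The 3 endothelial markers summed to 0.88 to 1.07 FPKM with DMSO and 0.96 to 1.16 FPKM with SD70. The part of these markers in the results that follow was not tested. In bulk RNA, fewer cells in a state and less RNA per cell cannot be told apart.

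At an adjusted p-value under 0.01, 2 of the 8 members were higher with SD70, 4 were lower and 2 did not pass. Ccnd2 was the one member that changed by at least 1 on the log2 scale. By the first rule, edgeR's quasi-likelihood test called 49.9% of all 11552 genes tested, 25.8% higher and 24.2% lower. Beside those shares, 2 of 8 members higher is close to the background, and 8 genes are too few to read the 4 lower as particular to them. With the fold change minimum, it called 5.9% of all genes, 3.29% higher and 2.61% lower. The median log2 fold change was -0.19 over the 8 members and -0.0043 over all genes tested. In 6 of the 8, every SD70 sample lay outside the range of the DMSO samples, a separation also seen in 64.4% of all genes. Without DMSO sample 1 or without DMSO sample 2, 1 member rather than 2 was higher, since Cdk4 no longer passed. The number lower was 5 without DMSO sample 1, where Ccne2 passed, and 3 without any one of the other 5 samples, where Ccnd1 no longer passed.

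**Figure D1:**
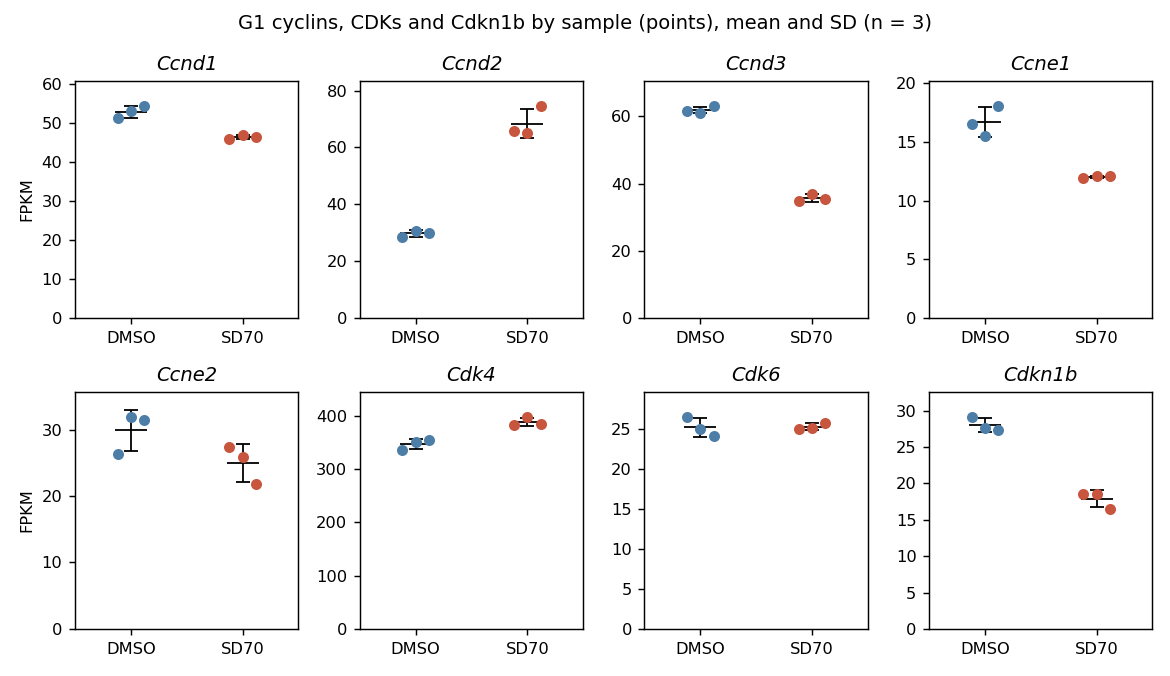
FPKM (y axis, starting at 0, scaled per gene) of the 8 members in each DMSO sample (blue) and each SD70 sample (red). Horizontal lines give the mean and whiskers the SD (n = 3). Ccnd2 is higher in every SD70 sample, Ccnd3, Ccne1 and Cdkn1b are lower in every SD70 sample, and the groups overlap for Cdk6 and Ccne2.

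FPKM values are scaled by gene length, so levels of different genes can be set side by side. With DMSO, Cdk4 had the highest level of the 8 (347 FPKM), followed by Ccnd3 (61.9 FPKM) and Ccnd1 (53.0 FPKM). Ccne2 (29.9 FPKM), Ccnd2 (29.8 FPKM) and Cdkn1b (28.0 FPKM) came next, and neighbours among these 3 overlapped between samples. Cdk6 (25.2 FPKM) and Ccne1 (16.7 FPKM) were lowest. With SD70, Ccnd2 (68.4 FPKM) held second place behind Cdk4 (388 FPKM), ahead of Ccnd1 (46.5 FPKM) and Ccnd3 (35.7 FPKM). Cdk6 (25.3 FPKM) and Ccne2 (25.0 FPKM) overlapped, and Cdkn1b (17.9 FPKM) and Ccne1 (12.04 FPKM) were lowest.

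The D-type cyclins moved in opposite directions. Ccnd2 (NCBI Gene 12444), on chromosome 6 of GRCm38.p6 from 127125162 to 127152188, encodes cyclin D2. Its counts were 2767, 2974 and 2959 under DMSO against 6248, 6327 and 6528 under SD70. All 3 SD70 samples were far above all 3 DMSO samples, and SD70 sample 3 was the highest although it had the smallest library. Normalized counts, scaled so that all libraries have an equal effective size, rose from 2807 ± 99.5 to 6602 ± 503 (SD, n = 3 each). The log2 fold change was 1.23 (SE 0.0541, edgeR adjusted p = 6.04e-20), a 2.35-fold rise that ranked above 98.0% of all genes tested. An exact permutation test over samples gave p = 0.1, the smallest that 3 against 3 allow, as it did for the other 5 members whose groups were separate. Its annotated span shares 2800 bases with the long noncoding gene 9330179D12Rik, and its counts were whole numbers in all 6 samples.

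Ccnd3 (NCBI Gene 12445), on chromosome 17 of GRCm38.p6 from 47505051 to 47599689, encodes cyclin D3 and fell. It stood at 61.7, 61.0 and 63.0 FPKM under DMSO against 34.8, 36.9 and 35.5 FPKM under SD70. No SD70 sample came near the DMSO range. Normalized counts were 1783 ± 40.1 under DMSO against 1044 ± 36.1 under SD70 (SD, n = 3 each), with a log2 fold change of -0.77 (SE 0.0551, edgeR adjusted p = 3.22e-14). Its counts were not whole numbers in any of the 6 samples. Its annotated end shares 359 bases with Bysl, a gene of ribosome assembly, which rose (log2 fold change 0.57, edgeR adjusted p = 1.24e-08), and whether counting used strand is not given in the sources used here.

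Ccnd1 (NCBI Gene 12443), on chromosome 7 of GRCm38.p6 from 144929931 to 144939831, encodes cyclin D1, the D-type cyclin most often amplified in tumours. Its FPKM was 51.4, 53.2 and 54.3 under DMSO against 46.1, 47.1 and 46.4 under SD70. The groups did not overlap, but the gap between them was small beside that of Ccnd2 or Ccnd3. Ccnd1 fell from 3153 ± 96.1 (SD, n = 3) to 2832 ± 28.0 (SD, n = 3) in normalized counts, with a log2 fold change of -0.15 (SE 0.0492, edgeR adjusted p = 0.00706). Its adjusted p from edgeR was 0.0201 without DMSO sample 2, 0.0425 without DMSO sample 3, 0.0156 without SD70 sample 1, 0.0134 without SD70 sample 2 and 0.0138 without SD70 sample 3, all over the threshold. Its counts were also not whole in any sample, and it shares 818 annotated bases with LTO1 (log2 fold change 0.03, edgeR adjusted p = 0.833).

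The make-up of the D-type cyclin pool followed from these changes. Ccnd2 supplied 20.2%, 21.2% and 20.4% of the summed FPKM of Ccnd1, Ccnd2 and Ccnd3 under DMSO against 44.8%, 43.7% and 47.6% under SD70. Its mean share went from 20.6 ± 0.565% to 45.4 ± 2.02% (SD, n = 3 each). The share of Ccnd3 went from 42.8 ± 0.732% to 23.7 ± 1.01%, and that of Ccnd1 from 36.6 ± 0.309% to 30.9 ± 1.06% (SD, n = 3 each). For each of the 3 shares the groups were separate (exact two-sided permutation, p = 0.1, the least that is possible). With normalized counts, which are not per length, the share of Ccnd1 changed by -13.6 points and that of Ccnd3 by -13.1 points. These changes were nearly equal, so the larger change of Ccnd3 in FPKM was not kept. In FPKM, Ccnd2 went from the least abundant of the 3 per length to the most abundant.

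The summed D-type cyclin level was 141.7, 145 and 147 FPKM under DMSO against 146, 149 and 156 FPKM under SD70. These groups overlapped, with means of 145 ± 2.83 and 151 ± 5.11 FPKM (SD, n = 3 each, two-sided exact permutation test, p = 0.2). In all 3 pairs of samples with the same number, the SD70 sample was the higher. These are pairs by number only and too few to test. The difference of 5.98 FPKM was 3.14 FPKM without SD70 sample 3. The result depended on the unit, since normalized counts, which are not per length, summed to 7743 ± 197 under DMSO and 10477 ± 486 under SD70 (SD, n = 3 each), a ratio of 1.35 with separate groups. The sum was examined after its parts were known.

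**Figure D2:**
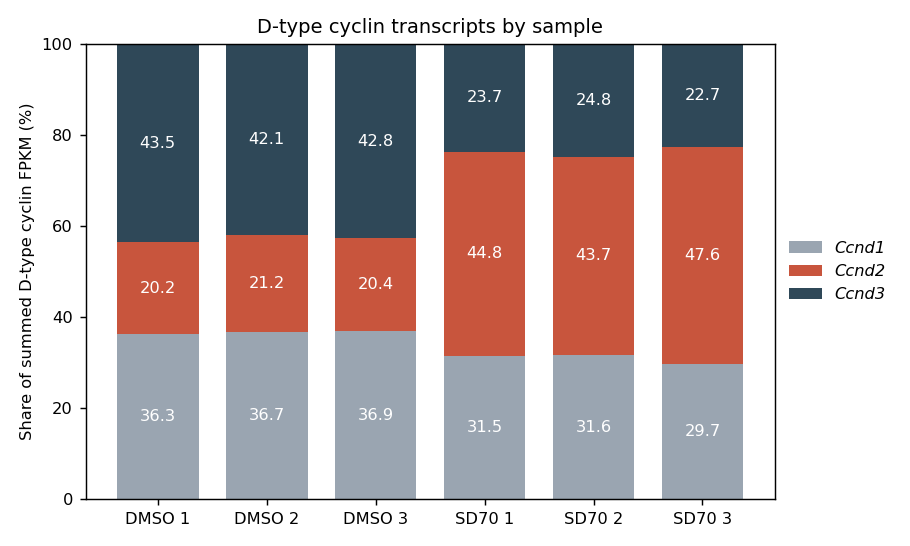
Share of each D-type cyclin (y axis, percent of the summed FPKM of Ccnd1, Ccnd2 and Ccnd3) in each of the 6 samples, with the share printed in each bar segment. Ccnd2 fills between 20.2% and 21.2% of the bar with DMSO and between 43.7% and 47.6% with SD70. The share of Ccnd3 falls more than that of Ccnd1 in FPKM, while the falls are nearly equal with normalized counts.

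Of the E-type cyclins, which bind CDK2 late in G1, Ccne1 fell and Ccne2 did not pass the threshold. Ccne1 (NCBI Gene 12447), on chromosome 7 of GRCm38.p6 from 38097984 to 38107490, had 494, 464 and 554 counts under DMSO against 351, 364 and 327 under SD70. Every SD70 sample was below every DMSO sample, and the spread between the SD70 samples was small. Normalized counts went from 488 ± 40.7 to 359 ± 2.69 (SD, n = 3 each), with a log2 fold change of -0.44 (SE 0.0778, edgeR adjusted p = 9.22e-06). It shares no annotated base with another gene.

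Ccne2 (NCBI Gene 12448), on chromosome 4 of GRCm38.p6 from 11190433 to 11204779, varied more between samples of a group. Its FPKM was 26.3, 31.9 and 31.4 under DMSO against 27.4, 25.8 and 21.8 under SD70. DMSO sample 1 fell within the range of the SD70 samples, and SD70 sample 3 was the lowest of all. Its normalized counts were 1254 ± 124 and 1071 ± 127 (SD, n = 3 each), with a log2 fold change of -0.23 (95% interval -0.40 to -0.05, edgeR adjusted p = 0.0299). Without DMSO sample 1 the value was -0.31 and passed (edgeR adjusted p = 0.000859), and it also passed when all genes with at least 1 count were fitted (edgeR adjusted p = 0.000439). Without SD70 sample 3 it was -0.14 (edgeR adjusted p = 0.0854), and the other alternatives gave adjusted p from 0.011 to 0.0748, none past the threshold. Its counts were not whole in any sample, and it shares 5622 annotated bases with Ints8 (log2 fold change 0.06, edgeR adjusted p = 0.377). The ratio of Ccne2 to Ccne1 in FPKM was 1.80 ± 0.238 under DMSO against 2.08 ± 0.252 under SD70 (SD, n = 3 each). The groups overlapped (two-sided exact permutation test, p = 0.2). The SD70 sample was higher in all 3 same-numbered pairs, which are pairs by number only and too few to test. The difference in this ratio was 0.282, but 0.180 without DMSO sample 1 and 0.172 without SD70 sample 1.

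Among the kinases that partner the D-type cyclins, Cdk4 rose and Cdk6 did not pass the threshold. Cdk4 (NCBI Gene 12567), on chromosome 10 of GRCm38.p6 from 127063535 to 127067288, stood at 336.41, 349.78 and 354.44 FPKM under DMSO against 382, 397 and 385 FPKM under SD70. The lowest SD70 sample was above the highest DMSO sample. Normalized counts went from 6653 ± 235 to 7571 ± 183 (SD, n = 3 each), with a log2 fold change of 0.19 (SE 0.0485, edgeR adjusted p = 0.00127). The rise was 13.8%, and its adjusted p from edgeR was 0.0116 without DMSO sample 1 and 0.0126 without DMSO sample 2.

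Cdk6 (NCBI Gene 12571), on chromosome 5 of GRCm38.p6 from 3341004 to 3531008, had 26.5, 25.0 and 24.1 FPKM under DMSO against 25.0, 25.2 and 25.8 FPKM under SD70. The SD70 samples lay inside the DMSO range, and the annotated span overlaps 2 long noncoding genes. Its log2 fold change was 0.04 (edgeR adjusted p = 0.468), with a 95% interval from -0.06 to 0.14, and the values over all 13 alternatives ran from 0.0059 to 0.08. Per length, the ratio of Cdk6 to Cdk4 was 0.0727 ± 0.00547 under DMSO against 0.0652 ± 0.00178 under SD70 (SD, n = 3 each), with separate groups (exact two-sided permutation, p = 0.1, the least that is possible). The difference was -0.00747, or -0.00448 without DMSO sample 1. In normalized counts, where the ratio is on another base because it is not per length, it was 0.704 ± 0.0590 and 0.637 ± 0.0216 (SD, n = 3 each), and the groups overlapped (two-sided exact permutation test, p = 0.2).

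Cdkn1b (NCBI Gene 12576), on chromosome 6 of GRCm38.p6 from 134920401 to 134925525, encodes p27Kip1, the inhibitor that holds cyclin E with CDK2 in check in resting cells, and fell. Its counts were 1090, 1035 and 1049 under DMSO against 683, 700 and 561 under SD70. The groups were far apart, and SD70 sample 3 was the lowest. Normalized counts went from 1024 ± 32.7 to 668 ± 44.4 (SD, n = 3 each), with a log2 fold change of -0.61 (SE 0.0631, edgeR adjusted p = 2.63e-10). It shares no annotated base with another gene, and its counts were whole numbers in all 6 samples.

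The inhibitors outside the 10 chosen genes were given for context from a list of Cdkn1a, Cdkn1c, Cdkn2c and Cdkn2d. Of these 4, 3 had enough counts and all 3 fell, against 24.2% of all genes tested, while Cdkn1c had at most 1 count in any sample. Cdkn1a, which encodes the p53-responsive inhibitor p21, had 3599, 3059 and 3406 counts under DMSO against 1275, 1318 and 1009 under SD70, a log2 fold change of -1.39 (SE 0.0650, edgeR adjusted p = 1.03e-15). Cdkn2d, an INK4 inhibitor known as p19Ink4d, had 1246, 1270 and 1297 counts under DMSO against 485, 517 and 369 under SD70, a log2 fold change of -1.38 (SE 0.0691, edgeR adjusted p = 2.15e-18). For both genes every SD70 sample was far below the lowest DMSO sample. Cdkn2c, the INK4 inhibitor p18, went from 22.4 ± 0.238 to 14.4 ± 0.616 FPKM (SD, n = 3 each), with a log2 fold change of -0.71 (SE 0.0788, edgeR adjusted p = 1.35e-09).

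The summed level of Cdkn1a, Cdkn1b, Cdkn2c and Cdkn2d was 243, 223 and 232 FPKM under DMSO against 103, 106 and 91.4 FPKM under SD70. The means were 233 ± 9.80 and 100.4 ± 7.93 FPKM (SD, n = 3 each), 2.32 times higher with DMSO. Set against the summed FPKM of Cdk4 and Cdk6, the same inhibitors gave a ratio of 0.626 ± 0.0385 under DMSO against 0.243 ± 0.0177 under SD70 (SD, n = 3 each). Both quantities were chosen after the single inhibitors had been seen to fall, which fixed the direction of the sums, so they are given with no test. They compare transcripts and not proteins, whose levels were not measured in these libraries.

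**Figure D3:**
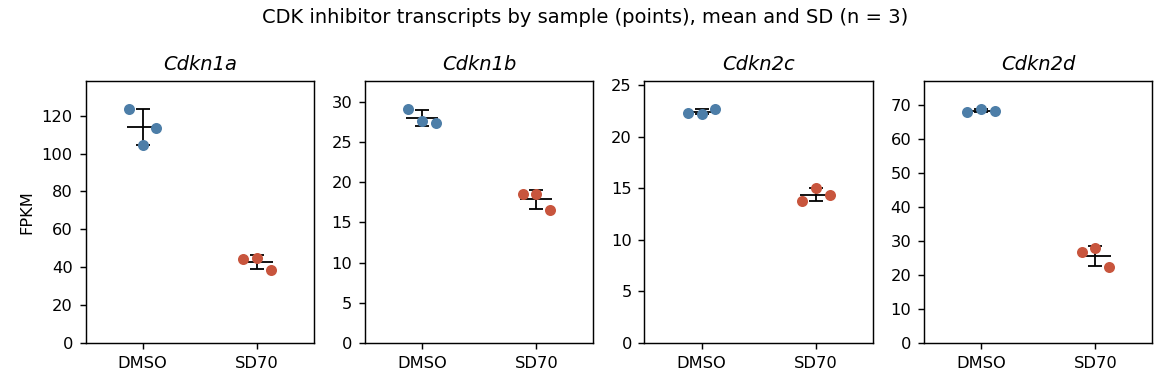
FPKM (y axis, starting at 0, scaled per gene) of 4 CDK inhibitor genes in each DMSO sample (blue) and each SD70 sample (red), with the mean and SD (n = 3). In all 4 genes the SD70 samples lie below the DMSO samples, at log2 fold changes of -1.39 for Cdkn1a, -0.61 for Cdkn1b, -0.71 for Cdkn2c and -1.38 for Cdkn2d.

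Promoter windows were found in the RefSeq table (GRCm38.p6) for 5 of the 8 members, Cdk4, Cdk6, Cdkn1b, Ccne1 and Ccnd3, the last with 2 start sites, which gave 6 windows. Each was searched on both strands, over the 250 bases before the start site, for the E2F motif (TTTCGCGC or TTTGGCGC), the cyclic AMP response element (TGACGTCA), the CCAAT box (CCAAT) and the GC box (GGGCGG). The windows of the 3 members that fell by the most are shown because these members fell together, with matches in capitals and the sequence written 5′ to 3′ along the gene. They lie at chr17:47504801-47505050 and chr17:47593217-47593466 on the plus strand for Ccnd3, at chr6:134920151-134920400 on the plus strand for Cdkn1b and at chr7:38107491-38107740 on the minus strand for Ccne1.
Ccnd3, first start: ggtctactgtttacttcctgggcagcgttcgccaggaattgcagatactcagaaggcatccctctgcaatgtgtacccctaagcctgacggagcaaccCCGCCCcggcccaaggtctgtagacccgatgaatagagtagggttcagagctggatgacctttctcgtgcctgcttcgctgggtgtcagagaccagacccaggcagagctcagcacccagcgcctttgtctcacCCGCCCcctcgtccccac
Ccnd3, second start: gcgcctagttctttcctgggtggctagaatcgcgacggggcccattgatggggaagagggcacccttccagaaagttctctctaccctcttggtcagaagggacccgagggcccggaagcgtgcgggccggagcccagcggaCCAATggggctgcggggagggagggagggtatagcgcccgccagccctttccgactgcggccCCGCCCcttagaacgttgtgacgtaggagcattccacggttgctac
Cdkn1b: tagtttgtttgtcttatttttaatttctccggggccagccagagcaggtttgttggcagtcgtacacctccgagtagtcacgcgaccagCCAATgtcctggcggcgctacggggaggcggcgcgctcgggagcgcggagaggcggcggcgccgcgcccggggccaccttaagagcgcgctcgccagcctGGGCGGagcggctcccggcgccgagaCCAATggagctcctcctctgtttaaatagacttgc
Ccne1: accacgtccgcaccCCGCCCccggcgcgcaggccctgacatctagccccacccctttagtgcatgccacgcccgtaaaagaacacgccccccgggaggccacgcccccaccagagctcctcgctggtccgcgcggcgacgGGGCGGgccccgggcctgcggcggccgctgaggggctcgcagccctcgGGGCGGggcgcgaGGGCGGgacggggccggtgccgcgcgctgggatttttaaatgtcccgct

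The GC box, bound by factors of the SP family, was present in 5 of the 6 windows, with 4 matches in Ccne1, 2 at the first start of Ccnd3, and 1 each at the second start of Ccnd3, in Cdkn1b and in Cdk4, while the Cdk6 window had 0. Over all 32851 promoter windows of the table, 32.7% held at least 1 GC box. The 6 windows were 59.6% to 76.0% G or C, which was not matched to all windows, and 2 of them belong to Ccnd3. No enrichment is read from this share. The CCAAT box, bound by NF-Y, was present in 2 windows, with 2 matches in Cdkn1b and 1 at the second start of Ccnd3, against 33.8% of all windows. The E2F motif was in 0 of the 6 windows and in 0.654% of all windows, and the cyclic AMP response element was in 0 of the 6 and in 1.55% of all. No match overlapped another. A match is a description of the letters in these windows and not a bound site.

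The rest of the G1 to S machinery was described from a list of 33 other genes, of which 32 had values and 31 were tested. Of the 31, 5 rose, 12 fell and 14 did not pass, with a median log2 fold change of -0.13 against -0.0043 over all genes. The 17 called lie near the background of 49.9% (25.8% of all genes rose and 24.2% fell). Cdk2, the partner of the E-type cyclins, fell from 1381 ± 27.7 (SD, n = 3) to 1198 ± 5.72 (SD, n = 3) in normalized counts, a log2 difference of -0.20 (edgeR adjusted p = 0.00159, but 0.0103 without DMSO sample 2). Ccna2, the A-type cyclin of S phase, fell as well, with a log2 fold change of -0.28 (edgeR adjusted p = 6.22e-06). Ccnh, the cyclin of the kinase that activates the cell cycle CDKs, rose by 0.34 on the log2 scale (edgeR adjusted p = 6.45e-06), while its partners Cdk7 (0.03) and Mnat1 (-0.02) did not pass.

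Of 13 genes of the RB and E2F families, 2 rose, 5 fell and 6 did not pass, near the 49.9% called over all genes. Rb1 itself, the retinoblastoma gene, had 642, 569 and 548 counts under DMSO against 565, 534 and 544 under SD70, with a log2 fold change of -0.0024 (95% interval -0.15 to 0.15, edgeR adjusted p = 0.98), a value whose sign changed between alternatives. Its relative Rbl2, which encodes the p130 pocket protein of resting cells, fell from 26.2 ± 0.920 to 17.4 ± 0.243 FPKM (SD, n = 3 each), with a log2 fold change of -0.56 (SE 0.0532, edgeR adjusted p = 4.93e-11). Rbl1, the p107 gene, rose by 0.18 on the log2 scale (edgeR adjusted p = 0.00438). Among the E2F factors, the activator E2f3 rose (log2 fold change 0.39, SE 0.0611, edgeR adjusted p = 1.18e-06), and E2f1, another activator, had a log2 fold change of -0.13 and did not pass (edgeR adjusted p = 0.0514). The repressors E2f7 and E2f8 fell, with log2 fold changes of -0.51 (SE 0.0687, edgeR adjusted p = 9.78e-08) and -0.36 (SE 0.0533, edgeR adjusted p = 5.59e-07).

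Among 8 genes linked to the turnover of cyclins and their inhibitors, 2 rose, 1 fell and 5 did not pass, against 25.8% of all genes higher and 24.2% lower. Gsk3b, the kinase that marks D-type cyclins for export and degradation, rose from 1900 ± 82.5 (SD, n = 3) to 2815 ± 103 (SD, n = 3) in normalized counts, with a log2 fold change of 0.57 (SE 0.0523, edgeR adjusted p = 2.17e-11). Cul1, the scaffold of the SCF ubiquitin ligases, rose by 0.39 on the log2 scale (SE 0.0554, edgeR adjusted p = 2.18e-07). Fbxo31, an F-box protein that targets cyclin D1, fell with a log2 fold change of -0.50 (SE 0.0585, edgeR adjusted p = 4.39e-09). Skp2, the F-box protein for p27Kip1, had a value of -0.07 and did not pass.

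**Figure D4:**
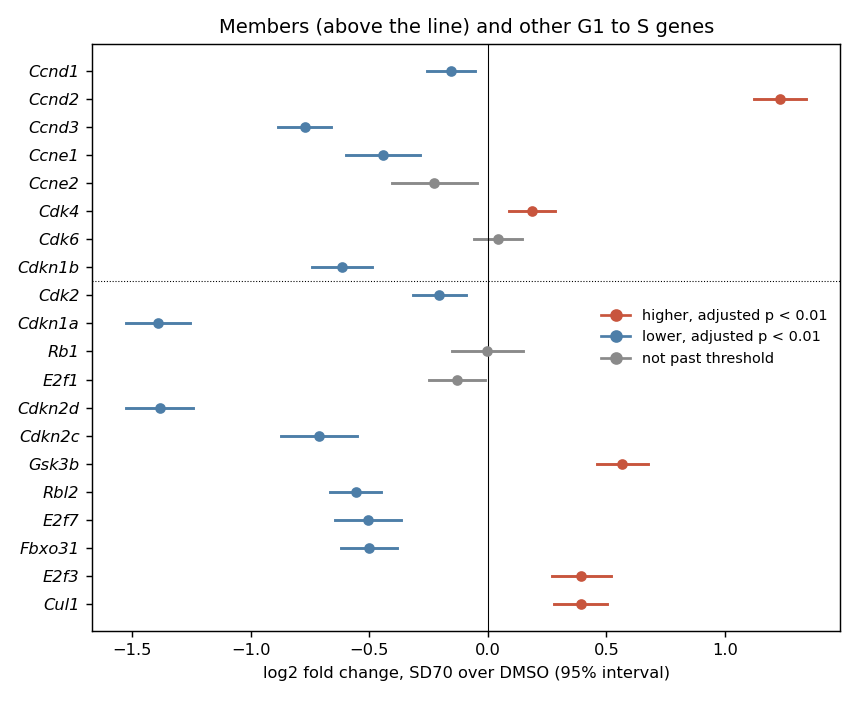
Log2 fold change of SD70 over DMSO (x axis) with its 95% interval for the 8 members (above the dotted line) and 12 other named G1 to S genes. Red marks genes higher and blue genes lower at an adjusted p under 0.01, and grey the others. Ccnd2 (1.23) stands to the right of every other gene plotted, and Cdkn1a (-1.39) and Cdkn2d (-1.38) are farthest to the left.

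Genes that act after G1 were set beside the members in 2 lists. Of 15 E2F target genes for DNA synthesis, 5 rose, 4 fell and 6 did not pass, with a median log2 fold change of 0.08. These counts lie near the background, 25.8% of all genes higher and 24.2% lower. Cdt1, which loads the replicative helicase, rose by 0.33 on the log2 scale (SE 0.0569, edgeR adjusted p = 6.80e-06). Tk1, thymidine kinase, fell from 53.8 ± 2.08 to 33.4 ± 2.41 FPKM (SD, n = 3 each), with a log2 fold change of -0.69 (SE 0.0641, edgeR adjusted p = 2.88e-11). Rrm2, a subunit of ribonucleotide reductase, had a log2 fold change of 0.0044 (edgeR adjusted p = 0.947), whose sign changed between alternatives. Without SD70 sample 3, 3 of the E2F target genes rose rather than 5.

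Of 12 mitotic genes, 0 rose, 8 fell and 4 did not pass, with a median log2 fold change of -0.37. In the same edgeR fit, 24.2% of all genes fell. Plk1, the polo-like kinase of mitotic entry, had 1912, 1824 and 1909 counts under DMSO against 856, 1011 and 779 under SD70, a log2 fold change of -1.0 (SE 0.0601, edgeR adjusted p = 3.31e-16). Aurkb, the kinase of the chromosomal passenger complex, fell with a log2 fold change of -0.93 (SE 0.0576, edgeR adjusted p = 7.72e-16). Cenpe, a kinetochore motor, had a value of -0.03 and did not pass (edgeR adjusted p = 0.699), and its sign changed between alternatives. The groups of Plk1 and Aurkb did not overlap, and those of Cenpe did.

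**Figure D5:**
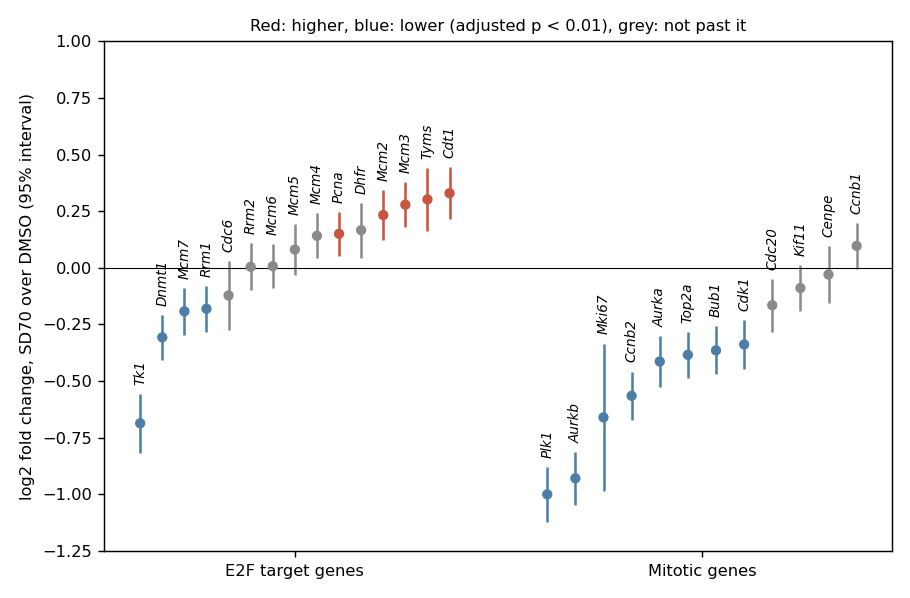
Log2 fold change of SD70 over DMSO (y axis) with its 95% interval for 15 E2F target genes and 12 mitotic genes, ordered within each list. The E2F target genes lie on both sides of 0, from -0.69 for Tk1 to 0.33 for Cdt1, and the mitotic genes run from -1.0 for Plk1 to 0.10 for Ccnb1.

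The genes whose log2 CPM over the 6 samples were most like those of Ccnd2 were Tra2b (Pearson r = 0.9998), Gpt2 (r = 0.9998) and Mthfd2 (r = 0.9997). The correlation describes 6 points in 2 groups and is carried by the difference between groups. Tra2b, a splicing regulator, rose by 0.45 on the log2 scale (edgeR adjusted p = 6.70e-10). Gpt2, a mitochondrial alanine transaminase, rose by 1.74 (edgeR adjusted p = 6.34e-11), and Mthfd2, a mitochondrial folate enzyme, by 1.78 (edgeR adjusted p = 3.02e-15). In Ccnd2, Tra2b, Gpt2 and Mthfd2 the SD between SD70 samples was larger than between DMSO samples. It was 503, 131, 571 and 512 normalized counts with SD70 against 99.5, 58.1, 82.1 and 91.6 with DMSO. Their means were higher with SD70 as well, so the SDs are not compared at an equal level.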

How the data were processed

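RNA-seq of 6 samples was analysed, and groups were taken from the sample titles. The study's methods state that clean BGISEQ-500 reads were aligned to GRCm38.p6 with HISAT, while the submitters' processing notes list StringTie 1.3.3b and the build mm8, with no role given. The authors deposited an expected count per gene, not normalized, and an FPKM value per gene, scaled by gene length and library size. The unit FPKM was inferred from the values. The counting tool for the expected counts is not given in the sources used here. Between 8.84% and 9.28% of counts per sample were not whole, and all were rounded.

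Genes were filtered by filterByExpr, normalized by TMM (factors 0.984 to 1.02) and compared by the quasi-likelihood functions glmQLFTest and robust glmQLFit of edgeR 4.0.16 (R 4.3.3), with Benjamini-Hochberg adjustment over 11552 genes. Standard errors were derived from the F statistic. Calls used an adjusted p under 0.01, alone or with a change of 1 or more on the log2 scale in either direction, as in the study's text, which does not say whether its p was adjusted. The alternatives were DESeq2 size factors, 2 other filters (at least 1 count in any sample, at least 10 in every sample), a replicate block, each sample left out, DESeq2 1.42.0, limma 3.58.1 on log2(FPKM + 1) and log2(FPKM + 0.1), an adjusted p under 0.05, and normalized counts in place of FPKM. The fits were tested on simulated data in which few genes changed, each by more than 1 on the log2 scale. That test does not bear on smaller changes. Sums over genes were added later.

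The members, lists and tests were chosen with earlier results of these data known. Named genes were all members, Cdk2, Cdkn1a, Rb1 and E2f1, the 8 other machinery genes with the largest change and a mean of at least 100 normalized counts, 3 genes of each further list, the 3 genes most like Ccnd2, and Kdm4c. Ccna2, Ccnh, Cdk7, Mnat1, Rbl1, E2f8, Skp2, Cdkn1c, Ccnb1 and the genes that overlap members fall outside this rule and were chosen after their values were seen. The cell type markers came from lists of their own.

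Samples with the same replicate number deviated from their group means together, with a Pearson r from 0.117 to 0.166 over 10269 genes. For different numbers r ran from -0.13 to -0.01. Deviations from a group mean sum to 0, so these lower values follow in part from the higher ones and are no separate evidence. Pairing by these numbers entered only the replicate block, an alternative fit, and neither the main fit nor the permutation tests. The pairing comes from the numbers in the titles, and nothing says that such samples were handled together. Within a group, all pairs of samples differed beyond counting error (a chi-square of 2.12 to 4.97 per gene).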

Additional observations from a re-analysis of the deposited data

How the results depend on the processing

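Ccnd2, Ccnd3, Ccne1 and Cdkn1b kept their direction and their side of the threshold in all 13 alternatives, with log2 fold changes from 1.16 to 1.27, from -0.80 to -0.75, from -0.51 to -0.38 and from -0.65 to -0.57. The replicate block changed no call of a member, with 2 higher and 4 lower as without it and a log2 fold change of 1.23 for Ccnd2, and 13 rather than 12 other machinery genes lower. Over all genes, 681 were called with a log2 change of at least 1 in edgeR against 283 in limma on log2(FPKM + 1) and 565 on log2(FPKM + 0.1). With each sample left out in turn, between 1 and 2 members and between 3 and 6 E2F target genes were higher, and between 3 and 5 members were lower. In limma on log2(FPKM + 1) and on log2(FPKM + 0.1), 3 E2F target genes were higher, and the cause was not tested. With normalized counts in place of FPKM, which are not per length, the share of Ccnd1 changed by -13.6 points, that of Ccnd3 by -13.1 points and the ratio of Cdk6 to Cdk4 by -0.0674, on a base of 0.704 with DMSO in place of 0.0727, so that the SD70 value was 0.904 times the DMSO value against 0.897 times in FPKM. Of the genes named by the rule, the only genes followed across alternatives, signs reversed for 4, none past the threshold. With 1 sample left out, Rb1 ran from -0.063 to 0.072, Rrm2 from -0.023 to 0.036, Cenpe from -0.099 to 0.029 and Kdm4c from -0.024 to 0.055. Rrm2 was -0.0067 with at least 10 counts in every sample and -0.027 in both limma fits, where Kdm4c was -0.0071 and -0.0076. With 3 samples per group, permutation tests cannot go under 0.1.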
